A study of Triticum aestivum with 15 samples.

Results

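Among the genes of bread wheat (Triticum aestivum) leaves, 161 were low in the first leaf after 1 day without iron and higher in every leaf library taken before and later. They were chosen by their CPM, that is, counts scaled to a library total of 1000000. A member is a high-confidence gene model whose lowest CPM among the 9 leaf libraries of days 0, 7 and 11 was at least 2. Its highest day 1 CPM also had to be at most 2/3 (0.666667) of that lowest value. Of 269207 gene models in the table, 107836 are high-confidence models, 26450 of them reached 2 CPM in all 9 libraries, and the 161 members are 0.609% of those. A further 13 low-confidence models met the same thresholds and are not members. Since the rule used the 12 leaf libraries, the dip itself is a description here and was not tested.

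Wild-type plants of the spring wheat cultivar Fielder, which is widely used for transformation, grew in hydroponic boxes with 50 µM iron for 12 days and were then moved to a solution with 0 µM iron. Messenger RNA was sequenced in 5 groups of 3 libraries. The first leaf was taken at the switch (day 0) and again 1 day later, the third leaf after 7 days, and both the upper leaves (leaf 3 to leaf 5) and the roots after 11 days. The study's design text names 3 plants by number, and each group has 1 library under each of these numbers, called plant 1, 2 and 3 here. Every library after day 0 comes from plants without iron, so time, plant age and iron supply cannot be told apart. Days 7 and 11 also differ from days 0 and 1 in leaf position. Day 11 differs from day 7 as well, since it takes in leaf 3 to leaf 5 and day 7 the third leaf alone. The sources used here do not state the hour of harvest.

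Leaves hold most of their iron in chloroplasts, where it serves photosynthetic electron transport and chlorophyll synthesis, and a leaf that is already grown can export part of its iron to younger leaves. Grasses take iron up from the medium by secreting phytosiderophores, small organic acids that bind ferric iron, and iron deficiency is known to raise the genes for their synthesis and transport. Bread wheat carries 3 subgenomes, A, B and D, and many of its genes have a copy on each. The identifiers in the file give the chromosome and the subgenome but no function, and none of them matched the reference table of 155467 wheat genes, so the members are described by identifier and by what they did. For the same reason the labelled tissues could not be checked against marker genes.

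The libraries held 15434838 to 25552816 counts, with 20145650 to 23860084 on day 1 and 15434838 to 19845743 on day 0. A count of 0 in all 3 root libraries allows up to 0.0433 CPM (3 counts over the group), for counting error only. The scaling of CPM differed between the days. Normalization factors from TMM (a method that scales libraries on the genes that change least) lay between 0.819 and 0.884 in day 1 libraries, 0.851 and 0.952 in those of day 0, 1.01 and 1.07 in those of day 7, and 1.24 and 1.28 in day 11 leaves. Dividing by the library total alone therefore placed the median of the 26450 expressed genes on day 1 lower by 0.13 (log2 CPM) than on day 0, by 0.33 than on day 7 and by 0.55 than on day 11. The 10 most abundant genes took 5.08% to 5.82% of the counts on day 1, 4.55% to 5.26% on day 0 and 2.91% to 4.64% on day 7. The part of these differences in the dip was measured by repeating the rule with TMM factors: 98 of the 161 members met it again, and 160 still had all 3 day 1 values below all 9 others.

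Summed over the members, the level was 2189 CPM ± 390 (SD, n = 3) on day 0, 713 CPM ± 30.0 on day 1, 3642 CPM ± 682 on day 7 and 4290 CPM ± 83.2 in day 11 leaves (SD, n = 3 each). Day 1 was the low point by construction, and its 3 plants lay close together, between 684 and 744 CPM. TraesCS7B02G019600 alone supplied 845 CPM of the day 11 sum, against 35.6 CPM on day 7 and 53.5 CPM on day 0. With library totals, the excess of the day 11 sum over the day 7 sum therefore rests on this gene. It also depends on the scaling, since TMM factors were 1.24 to 1.28 in day 11 leaves and 1.01 to 1.07 on day 7. The sums were not repeated with these factors. In the median member the day 0 mean was 2.80 times the day 1 mean, the day 7 mean 4.84 times and the day 11 mean 4.89 times. With TMM factors these medians were 2.64, 3.87 and 3.30 times, so the day 11 contrast shrank most. The range between members was wide, from 1.74 to 119 times for day 0 over day 1.

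**Figure D1:**
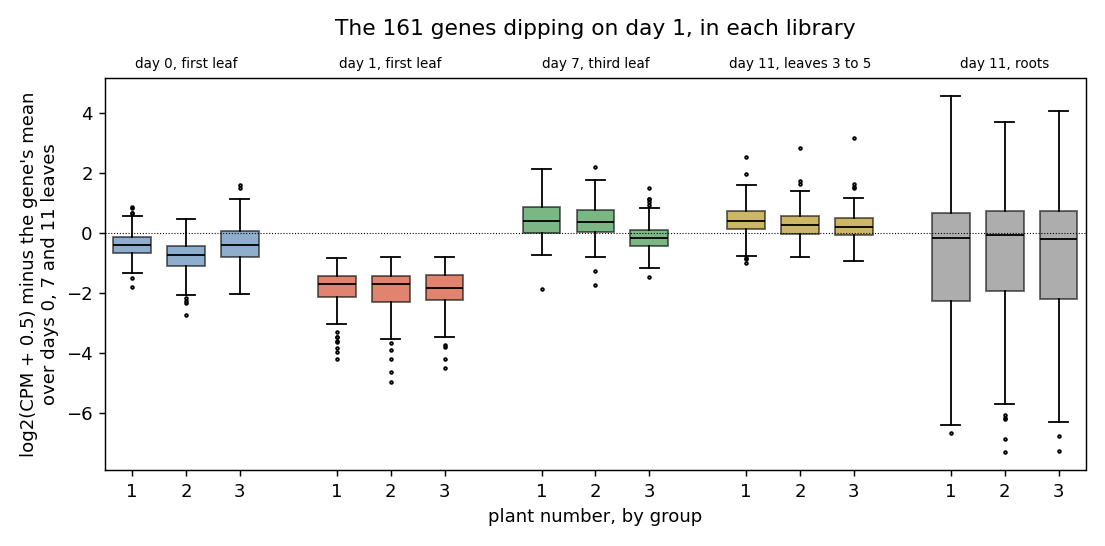
Boxes show, for each of the 15 libraries, the 161 members as log2(CPM + 0.5) minus each gene's mean over the leaf libraries of days 0, 7 and 11 (line, median; box, quartiles; whiskers, 1.5 times the box height; dots, genes beyond). The day 1 medians lie between -1.83 and -1.70, the day 0 medians between -0.73 and -0.40, and the root boxes are the widest.

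Most members dipped only a little further than the rule asks. The ratio of the highest day 1 value to the lowest other leaf value, called the dip ratio here, had a median of 0.588. It was above 0.6 in 68 members, at most 0.5 in 37 and at most 0.4 in 18. Of the 37 members with a ratio of at most 0.5, 35 also met the rule with TMM factors.

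The margin of the rule was usually set by a day 0 library. The lowest of the 9 other leaf values lay in a day 0 library in 129 members, and in that of plant 2 alone in 86. It lay on day 7 in 22 members and on day 11 in 10. Day 0 libraries had lower TMM factors than leaf libraries of days 7 and 11, so the scaling by library totals bears on these numbers. The share of expressed genes with their lowest value on day 0 was not counted. With 1 plant left out, fewer libraries had to meet the rule, so the number of genes could only rise: it was 334 without plant 1, 579 without plant 3 and 909 without plant 2. Just inside the threshold of 0.666667 stood TraesCS7D02G157500 (dip ratio 0.666641, 4.12 CPM against 6.18 CPM), TraesCS7A02G319500 (0.665731) and TraesCS2D02G422700 (0.663921). Just outside stood TraesCS6D02G090700 at a ratio of 0.666781, TraesCS5D02G237800 at 0.667259 and TraesCS2D02G453600 at 0.667335. On the level side, TraesCS1B02G352100 and TraesCS6D02G002300 were inside at 2.01 CPM, and TraesCS2D02G387600 was outside at 1.97 CPM.

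The same thresholds with another day as the low one gave 79 genes for day 0, 31 for day 7 and 1351 for day 11. With TMM factors the counts were 87, 36 and 2165, and 105 genes for day 1. High-confidence genes with day 1 as the only high day, at 1.5 times the highest other value and with every other leaf value at 2 CPM or more, numbered 60. The day 1 dip was thus more frequent in these libraries than a dip on day 0 or day 7 under both scalings, and much less frequent than low values on day 11. These counts were not tested.

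The deepest dip was that of TraesCS5B02G232700 on chromosome 5B, with a dip ratio of 0.0585. Its CPM in plants 1, 2 and 3 was 9.07, 3.81 and 13.6 on day 0, then 0, 0.223 and 0 on day 1, 11.3, 9.63 and 8.03 on day 7, and 9.99, 13.4 and 5.79 on day 11. Only 5 counts were left in the day 1 group, against 464 on day 0, 635 on day 7 and 606 on day 11. Roots were low as well, at 1.06, 0.753 and 1.29 CPM.

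A pair of members on chromosome 5B with a single gene model between them came next. TraesCS5B02G268100 stood at 4.74, 9.99 and 6.80 CPM on day 0, at 0.298, 0.580 and 0.419 CPM on day 1, at 6, 12.9 and 14.5 CPM on day 7 and at 13.9, 9.73 and 9.82 CPM on day 11. TraesCS5B02G268300 went from 35.1, 48.9 and 96.0 CPM on day 0 to 4.81, 6.91 and 5.57 CPM on day 1, and stood at 71.4, 174 and 169 CPM on day 7 and 81.7, 76.5 and 93.8 CPM on day 11. In both genes the 3 day 1 values were far below all other leaf values, and days 0, 7 and 11 overlapped. Their log2 CPM correlated at r = 0.97 across the 12 leaf libraries, which share the dip that the rule selected. TraesCS5B02G268100 had 0 counts in all roots, and TraesCS5B02G268300 had 2.50 CPM ± 1.27 (SD, n = 3) there.

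The other members among the 8 deepest dips differed mainly in what followed day 1. TraesCS1A02G096600 on chromosome 1A overlapped its starting level afterwards: 6.40, 9.73 and 9.52 CPM on day 0, 1.64, 1.52 and 1.68 CPM on day 1, 6.13, 7.91 and 7.26 CPM on day 7 and 7.54, 9.40 and 7.85 CPM on day 11, with days 0, 7 and 11 overlapping. Its fitted log2 fold change of day 11 over day 0 was -0.54 (SE 0.20, edgeR adjusted p = 0.05, lost in 7 of 10 alternatives). TraesCS2B02G319600 on chromosome 2B stood at 5.44, 4.22 and 8.88 CPM on day 0, at 1.24, 0.981 and 1.26 CPM on day 1, at 12.1, 12.1 and 5.8 CPM on day 7 and at 5.68, 5.89 and 5.24 CPM on day 11, with plants 1 and 2 of day 7 above all other values. The remaining 3 of the 8 were called higher later than on day 0. TraesCS4B02G155500 on chromosome 4B had 14.4, 11.9 and 12.6 CPM on day 0, 3.43, 3.52 and 3.48 CPM on day 1, 19.3, 28.8 and 21.6 CPM on day 7 and 34.6, 33.9 and 32.3 CPM on day 11, with no overlap between these groups (log2 fold change of day 11 over day 0 0.90, SE 0.14, edgeR adjusted p = 0.00045). Its day 1 values varied least, with an SD of 0.0496 CPM around a mean of 3.48. TraesCS6B02G037600 on chromosome 6B had 16.7, 8.96 and 10.5 CPM on day 0, 2.78, 2.63 and 2.77 CPM on day 1, 81.3, 102 and 58.6 CPM on day 7 and 43.1, 52.4 and 54.7 CPM on day 11, so that day 7 stood highest (log2 fold change of day 7 over day 0 2.53, SE 0.23, edgeR adjusted p = 0.00013). TraesCS5A02G152700 on chromosome 5A had 10.0, 3.86 and 9.33 CPM on day 0, 0.993, 0.937 and 1.09 CPM on day 1, 81.0, 70.8 and 15.3 CPM on day 7 and 44.1, 20.2 and 23.6 CPM on day 11, and plant 3 was far below the other plants on day 7. Each of these 8 genes also met the rule with TMM factors.

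**Figure D2:**
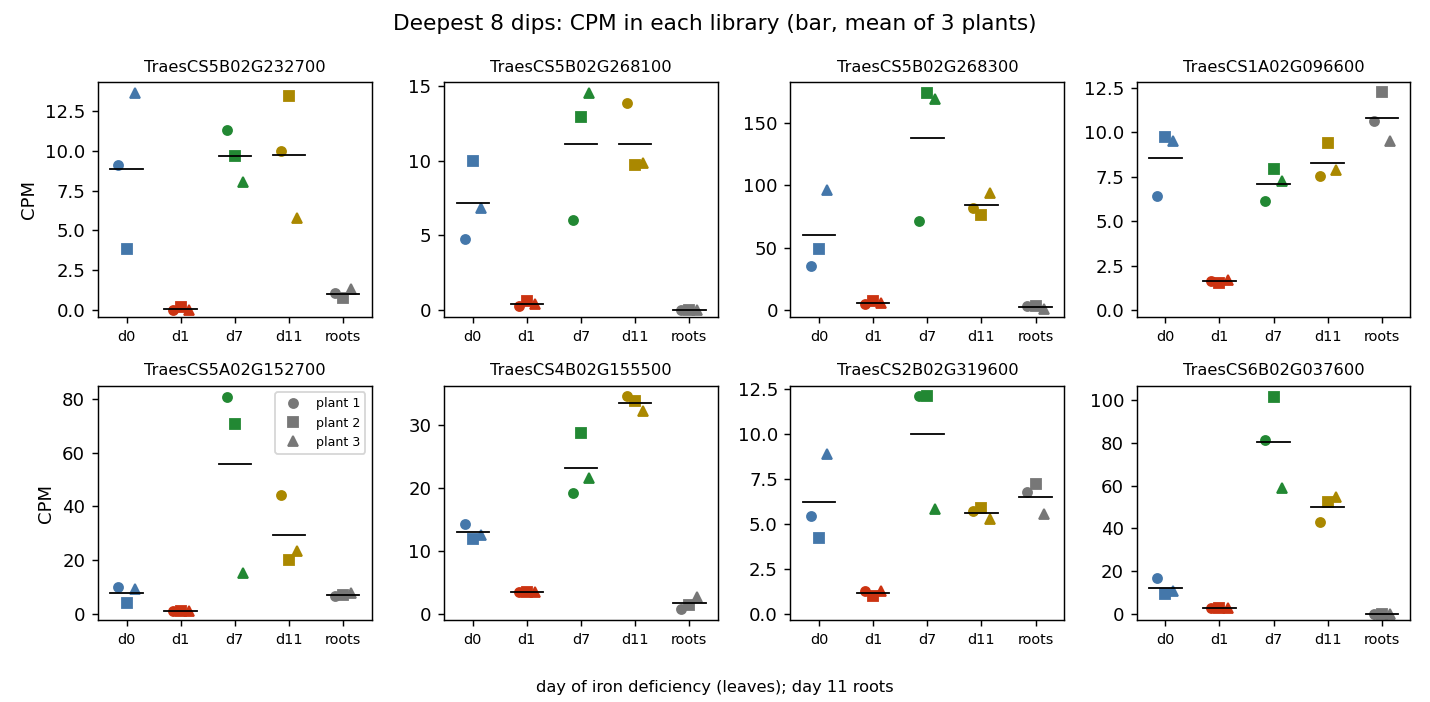
Each panel shows 1 of the 8 members with the lowest dip ratio, with CPM on the vertical axis (linear, starting at 0), the leaf days and the roots on the horizontal axis, a point for each plant and a bar for the mean of 3. In every panel the 3 day 1 points lie below all other leaf points, while day 7 and day 11 range from the day 0 level to several times above it.

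The 4 members with the most counts have the least counting error, and with TMM factors 3 of them no longer met the rule. TraesCS7D02G419400 on chromosome 7D stood at 248, 173 and 257 CPM on day 0, 52.1, 30.6 and 22.1 CPM on day 1, 221, 222 and 124 CPM on day 7 and 88.1, 89.4 and 114 CPM on day 11. Its dip ratio was 0.592, or 0.905 with TMM factors. Day 11 was the lower of its later days, and plant 1 the lowest library there. TraesCS2D02G422700 on chromosome 2D had 97.3, 98.3 and 148 CPM on day 0, 39.4, 39.8 and 25.5 CPM on day 1, 63.6, 225 and 109 CPM on day 7 and 126, 102 and 60.0 CPM on day 11. With TMM factors its ratio was 1.02, and it is the single member whose day 1 values then overlapped another leaf library. TraesCS5A02G321300 on chromosome 5A had 109, 21.3 and 32.2 CPM on day 0 12.4, 12.9 and 11.8 CPM on day 1, 183, 104 and 78.8 CPM on day 7 and 226, 165 and 185 CPM on day 11. Its ratio was 0.607, or 0.663 with TMM factors, and its day 1 values lay close together while those of day 0 differed several-fold. TraesCS7B02G019600, also among these, is described with the day 11 leaves.

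**Figure D3:**
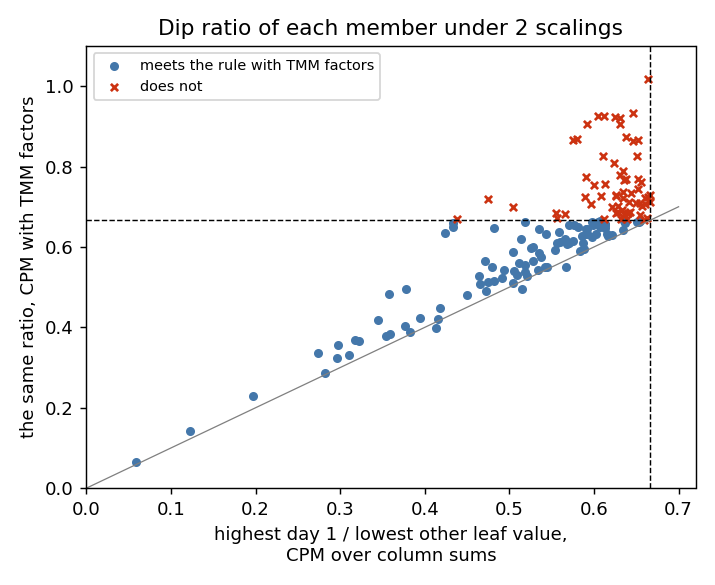
Each point is a member, with its dip ratio from CPM over library totals on the horizontal axis and from TMM-scaled CPM on the vertical axis; dashed lines mark 0.667 and the grey line marks equal values. The 98 members that meet the rule under both scalings include 35 of the 37 with a ratio of at most 0.5, and 1 point lies above 1.

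Members varied more between plants on days 0 and 7 than on day 1. The median coefficient of variation between the 3 plants was 25.2% on day 0, 15.1% on day 1, 29.2% on day 7 and 12.3% on day 11. Over the 26450 expressed genes it was 16.6%, 12.5%, 16.9% and 9.60%. In the median member the highest of the 9 other leaf values was 3.57 times the lowest. It was under 2 times in 22 members and over 5 times in 43. The like numbers for the expressed genes were not counted.

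The neighbouring pair on chromosome 3D shows such variation. TraesCS3D02G126300 had 32.3, 2.27 and 3.95 CPM on day 0 and TraesCS3D02G126500, with 1 gene model between them, had 29.4, 5.67 and 11.1 CPM, so plant 1 was the highest in both. On day 1 they had 0.993, 1.34 and 1.26 CPM and 2.04, 1.29 and 1.63 CPM. On day 7 both were high in every plant, at 44.3, 46.0 and 34.9 CPM and at 38.2, 40.2 and 26.9 CPM. Their r over the 12 leaf libraries was 0.96, again with the shared dip in it. Reads that could belong to either of 2 alike neighbours may have been split between them, and the sources used here do not say how such reads were counted.

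What the rule did not fix is how days 0, 7 and 11 compare with each other, although it kept low values out of all of these libraries. All 161 members passed the filter on low counts, as the rule's own floor ensures. In the third leaf of day 7, 54 members were higher and 5 lower than in the first leaf of day 0 (edgeR's quasi-likelihood test, Benjamini-Hochberg over 62841 genes, adjusted p under 0.05). Of all 62841 genes tested, 28.2% were called, 14.3% higher and 13.9% lower. Of the 26450 expressed genes 16.3% were higher and 19.0% lower, and of the members 33.5% and 3.11%. The median log2 fold change of the members was 0.58, beside 0.09 over all genes. The values of both days entered the rule, so the choice of members bears on this direction, and no test of it is given. The 129 members with their lowest value on day 0 in part restate this direction and are no separate evidence for it. Without plant 2 the called members numbered 9, beside 2389 of all 63434 genes tested. They numbered 32 without plant 1, beside 9419 of 63126. With the libraries of days 0 and 7 alone in the fit they numbered 27, beside 8034 of 56054. Calls over all genes thus fell as well, from 17732 of 62841 in the main fit.

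Among members that moved 1 way in all 3 plants, the largest called increases on day 7 were those of TraesCS5A02G142000 and TraesCS5A02G152700, both on chromosome 5A. TraesCS5A02G142000 rose from 4.64, 2.27 and 2.98 CPM on day 0 to 28.5, 29.3 and 13.4 CPM on day 7, having been at 1.39, 1.29 and 1.30 CPM on day 1 (log2 fold change of day 7 over day 0 2.63, SE 0.30, edgeR adjusted p = 0.0003). Day 0 and day 7 did not overlap, and the call held in all 10 alternatives, with an edgeR or DESeq2 adjusted p of up to 0.0374. TraesCS5A02G152700 rose by a log2 fold change of 2.62 (SE 0.56, edgeR adjusted p = 0.0064), and its call ended without plant 1 (0.0602) or plant 2 (0.138). Decreases were few. TraesCS3A02G404800 on chromosome 3A fell from 4.79, 6.49 and 9.39 CPM to 3.94, 3.49 and 3.29 CPM (log2 fold change -1.18, SE 0.25, edgeR adjusted p = 0.0067), and the call ended without plant 2 (0.127). TraesCS2A02G450500 on chromosome 2A fell from 46.4, 39.8 and 72 CPM to 29.9, 28.5 and 28.7 CPM (log2 fold change -1.09, SE 0.21, edgeR adjusted p = 0.004), and its call also ended without plant 2 (0.0605). Its day 1 values were lower still, at 10.1, 10.8 and 10.2 CPM.

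In the upper leaves of day 11, 48 members were higher and 14 lower than on day 0. Of all genes tested, 21.6% were higher and 22.7% lower, of the expressed genes 24.1% and 31.0%, and of the members 29.8% and 8.7%. The values of both days entered the rule, which bears on this direction. Their median log2 fold change was 0.26, beside 0.12 over all genes. The called share of the members, 38.5%, was below the 44.3% of all genes and the 55.1% of the expressed genes. Without plant 2 the called members numbered 31, beside 16494 of all 63434 genes tested. Of the members, 31 were higher on both day 7 and day 11 than on day 0 (19.3%, beside 9.95% of all genes and 11.2% of the expressed genes), a direction on which the choice of members bears. The members called in none of the 3 comparisons among days 0, 7 and 11 numbered 70 (43.5%, beside 47.2% of all genes and 34.8% of the expressed genes).

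TraesCS7B02G019600 on chromosome 7B had the largest increase by day 11. It stood at 60.5, 61.6 and 38.4 CPM on day 0, 20.3, 19.9 and 16.3 CPM on day 1, 31.1, 34.0 and 41.6 CPM on day 7 and 669, 826 and 1040 CPM on day 11. The day 11 values were far above all other libraries (log2 fold change of day 11 over day 0 3.51, SE 0.25, edgeR adjusted p = 2.1e-06), and the call held in all 10 alternatives. Its dip is shallow, with a ratio of 0.651 and 0.825 with TMM factors. TraesCS2B02G437200 on chromosome 2B rose from 2.77, 3.45 and 3.95 CPM on day 0 to 33.0, 36.8 and 21.0 CPM on day 11, after 0.893, 0.714 and 0 CPM on day 1 and 18.3, 10.5 and 10.1 CPM on day 7 (log2 fold change of day 11 over day 0 2.67, SE 0.55, edgeR adjusted p = 0.0026; 0.0777 without plant 2). The plants of days 1, 7 and 11 did not overlap, although day 11 over day 7 was not called (log2 fold change 0.96, SE 0.51, edgeR adjusted p = 0.21).

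Decreases by day 11 are given for the 2 members with the largest among those that moved 1 way in all 3 plants. TraesCS7D02G419400, given above, fell by 1.70 on the log2 scale between day 0 and day 11 (SE 0.33, edgeR adjusted p = 0.0018). TraesCS3A02G404800 fell to 4.36, 4.49 and 3.73 CPM (log2 fold change -1.21, SE 0.25, edgeR adjusted p = 0.0027). Both calls held in all 10 alternatives. With TMM factors the dip ratio of TraesCS3A02G404800 was 0.825, and its day 1 mean, 1.92 CPM by library totals, stood below the day 7 mean (3.57 CPM) and the day 11 mean (4.19 CPM).

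**Figure D4:**
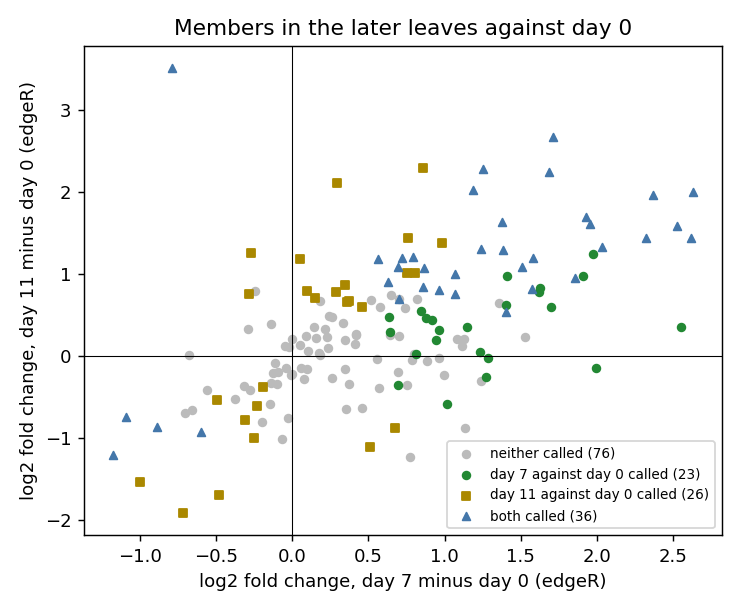
Each point is a member, with its edgeR log2 fold change of day 7 against day 0 on the horizontal axis and of day 11 against day 0 on the vertical axis; symbols show which of the 2 comparisons was called. Both were called in 36 members, day 7 alone in 23, day 11 alone in 26 and neither in 76, and the point at the top is TraesCS7B02G019600 at 3.51.

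Between the third leaf of day 7 and the upper leaves of day 11, 10 members rose and 20 fell, which is 6.21% and 12.4%. Of all genes tested, 21.9% were called, 8.74% higher and 13.2% lower, and of the expressed genes 31.3%, 11.5% and 19.8%. In this fit a smaller share of the members was called than of either. The called members numbered 12 without plant 1, beside 5149 of all 63126 genes tested, and 9 without plant 2, beside 3357 of 63434. Without the day 7 library of plant 3 they numbered 46, beside 14569 of 65449, a larger share than of all genes. That library stood lower than the other day 7 libraries in the summed level (2868 CPM against 3902 and 4156 CPM). TraesCS7B02G019600 again rose most (log2 fold change 4.30, SE 0.26, edgeR adjusted p = 1.1e-05). TraesCS4B02G288100 on chromosome 4B had 4.69, 2.68 and 4.6 CPM on day 0, 1.44, 1.07 and 1.05 CPM on day 1, 8.01, 4.42 and 4.52 CPM on day 7 and 25.6, 22.0 and 24.3 CPM on day 11. Its day 11 leaves were above every earlier leaf (log2 fold change of day 11 over day 7 1.81, SE 0.27, edgeR adjusted p = 0.00095).

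Other members were highest in the third leaf of day 7 and lower in the upper leaves of day 11, 2 groups that also differ in the leaves taken. TraesCS7B02G261900 on chromosome 7B stood at 15.2, 3.91 and 11.3 CPM on day 0, 1.74, 0.714 and 2.43 CPM on day 1, 56.8, 103 and 48.2 CPM on day 7 and 15.1, 20.9 and 17.7 CPM on day 11. It fell by 2.21 on the log2 scale from day 7 to day 11 (SE 0.47, edgeR adjusted p = 0.0073; 0.081 without plant 1). TraesCS2B02G464100 on chromosome 2B stood at 25.8, 15.2 and 15.4 CPM on day 0, 4.62, 3.61 and 7.29 CPM on day 1, 64.0, 101 and 93.8 CPM on day 7 and 19.2, 24.1 and 26.8 CPM on day 11. It fell by 2.15 on the log2 scale (SE 0.28, edgeR adjusted p = 0.00047). In both genes day 11 lay within or near the range of day 0. In all, 11 members were called higher on day 7 than on day 0 and lower on day 11 than on day 7 (6.83%, beside 1.52% of all genes and 2.43% of the expressed genes). The choice of members bears on the rise from day 0 to day 7 in this pattern, and no test of the excess is given.

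Roots were not used to choose the members. Of the 161, 121 had at least 2 CPM in all 3 root libraries (75.2%, beside 84.5% of the expressed genes), 26 had a mean under 1 CPM and 9 had 0 counts. Against the upper leaves of the same day, 90 members were lower and 35 higher in roots (edgeR, adjusted p under 0.05 over 67922 genes). Of all genes tested, 68.4% were called, 32.7% lower and 35.7% higher, of the expressed genes 45.3% and 27.0%, and of the members 55.9% and 21.7%. The median log2 fold change of roots over leaves was -0.53 in the members, 0.05 over all genes and -0.22 over the expressed genes. The day 11 leaf values entered the rule, so a member could not be low in these leaves, which bears on the direction. In these bulk samples a lower level cannot be told apart from fewer cells of a type that expresses the gene.

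The largest decreases in roots were in genes with 0 root counts. TraesCS6B02G037600, at 43.1, 52.4 and 54.7 CPM in day 11 leaves, was at least 1157-fold lower in roots (edgeR adjusted p = 2e-06). TraesCS6A02G231300 on chromosome 6A, at 44.3, 42.8 and 27.4 CPM in day 11 leaves, was at least 882-fold lower (edgeR adjusted p = 9.9e-06). These bounds take the mean of the leaves over the floor of 3 counts and do not allow for the spread between plants. TraesCS6A02G231300 had 19.7, 14.0 and 46.3 CPM on day 0, 7.89, 8.70 and 8.89 CPM on day 1 and 17.3, 27.1 and 14.8 CPM on day 7. The other 7 members at 0 in roots included TraesCS5B02G268100, TraesCS2B02G464100 and TraesCS7B02G261900, with bounds of 257-fold, 540-fold and 413-fold.

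The largest increases in roots were in TraesCS2D02G453100 and TraesCS2A02G453400. TraesCS2D02G453100 had 4.99, 3.55 and 2.37 CPM in day 11 leaves and 29.0, 26 and 42.4 CPM in roots (log2 fold change 3.05, SE 0.29, edgeR adjusted p = 5.1e-05). TraesCS2A02G453400 had 6.76, 5.28 and 5.39 CPM in these leaves and 47.1, 48.2 and 56.5 CPM in roots (log2 fold change 3.01, SE 0.13, edgeR adjusted p = 1.3e-06). Leaves and roots did not overlap in either gene. On day 1 they stood at 1.29, 1.34 and 0.964 CPM and at 1.94, 1.38 and 1.51 CPM, and neither met the rule with TMM factors. TraesCS4B02G288100 was higher in roots as well, at 83.4, 69.8 and 99.3 CPM (log2 fold change 1.70, SE 0.15, edgeR adjusted p = 3.4e-05).

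Set against the dip, the roots of 37 members were all below the lowest day 1 leaf (23.0%, beside 30.2% of the expressed genes). In 111 members all roots were above the highest day 1 leaf, which is 68.9%, beside 57.7% of the expressed genes, and in 30 they were above every leaf of days 0, 7 and 11 as well (18.6%, beside 27.1%). In the other 13 members, roots and day 1 leaves overlapped. With TMM factors over all 15 libraries the numbers were 45, 97 and 20, which is 28.0%, 60.2% and 12.4% of the members, beside 44.6%, 35.0% and 15.4% of the expressed genes. The low day 1 values are those of the rule, so roots above them are favoured by the choice of members.

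**Figure D5:**
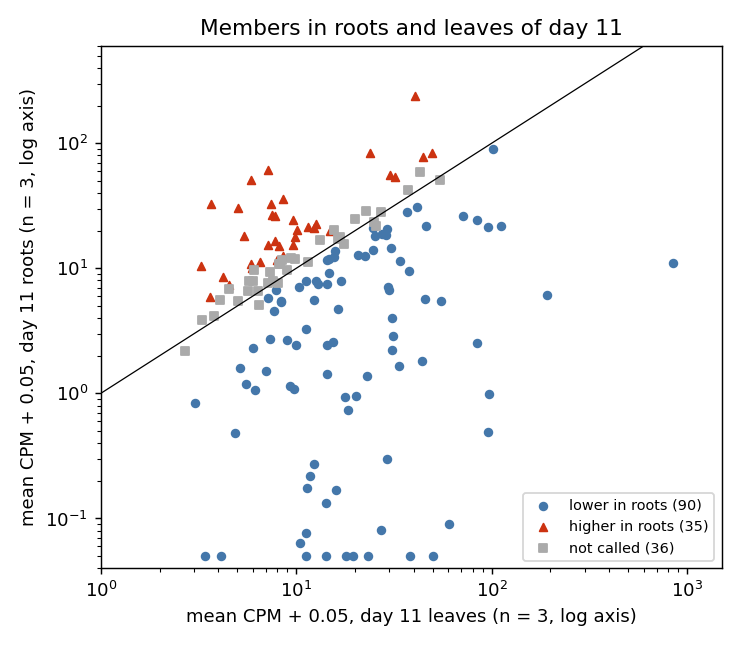
Each point is a member, with its mean CPM + 0.05 in day 11 leaves on the horizontal axis and in day 11 roots on the vertical axis (n = 3 each, both axes logarithmic); the line marks equal levels. Of the 161 members 90 were called lower in roots, 35 higher and 36 neither, and the 9 members without root counts lie on the bottom row.

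The members were spread over all 21 chromosomes. Subgenome A held 48 members, B 56 and D 56, which is 29.8%, 34.8% and 34.8%, beside 33.3%, 32.6% and 33.3% of the expressed genes, and 1 member has no assigned chromosome. Among the chromosomes, 7B held 11 members of 1108 expressed genes and 4A 2 of 1220. Chromosomes 4A, 4B and 4D together held 14 members, 0.401% of their expressed genes.

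Some members lie at matching places on chromosomes of the same number. The order of the high-confidence identifiers along each chromosome was used for this, with a difference of at most 2% of the chromosome's gene models counted as matching, a limit chosen after the members' identifiers had been seen. Of 1253 pairs of members on same-numbered chromosomes of different subgenomes, 72 matched (5.75%, beside 4.41% of such pairs of expressed genes). These pairs held 93 members, and the like number for expressed genes was not counted, so no excess is read from it. Over the 12 libraries other than day 1, 12 of the 72 pairs (16.7%) had an r of 0.9 or more in log2 CPM, beside 7.24% of the 12808 other pairs of members. The points of these correlations share their libraries and include the step from leaves to roots. Whether the paired genes are copies of 1 ancestral gene is not given by the file, and reads may have been counted to any of such copies.

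The 12 pairs form 10 sets with 21 members, and 1 set spans all 3 subgenomes. In it, TraesCS2A02G523700 had 16.5, 9.79 and 7.65 CPM on day 0 and 3.33, 3.61 and 3.27 CPM on day 1, TraesCS2B02G553600 had 46.4, 41.0 and 35.9 CPM and 18.1, 15.2 and 14.5 CPM, and TraesCS2D02G525900 had 9.47, 6.33 and 6.93 CPM and 2.38, 2.23 and 2.35 CPM. All of them were low in roots, at 1.32 CPM ± 0.44, 1.78 CPM ± 0.425 and 0.127 CPM ± 0.0604 (SD, n = 3 each). On chromosomes 5A and 5B, TraesCS5A02G152700 and TraesCS5B02G151400 (r = 0.98) shared the high day 7 values of plants 1 and 2 and the lower value of plant 3, which in TraesCS5B02G151400 were 31.1, 34.3 and 8.90 CPM. This is not particular to the pair. Summed over all members, plant 3 was also the lowest on day 7, at 2868 CPM against 3902 and 4156 CPM. On day 1 TraesCS5B02G151400 had 2.13, 1.65 and 1.38 CPM. The root-high genes TraesCS2A02G453400 and TraesCS2D02G453100 also formed a set (r = 0.97).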

How the data were processed

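Messenger RNA of 12 leaf and 3 root libraries was sequenced with a stranded kit as paired reads of 150 nt, per the labels' protocols. The file deposited by the authors holds raw counts for each gene model and library. The submitters' processing notes list featureCounts 2.0.3, HISAT2 2.2.1, StringTie 2.2.3, Trim Galore 0.6.7, MultiQC 1.11 and FastQC 0.74, without their roles. The sources used here leave out which assembly and gene annotation were used, whether counting used strand and how reads with several places were treated, so counts of near-identical copies, neighbouring duplicates and overlapping genes are uncertain. The table has 0 columns of no sample.

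CPM are counts over the library total. The count test was that of edgeR 4.0.16 under R 4.3.3 (TMM, filterByExpr, glmQLFit, glmQLFTest, group as the only term, Benjamini-Hochberg over all genes tested). The 12 leaf libraries formed 1 fit (62841 genes) and the 6 libraries of day 11 another (67922). The SE is the log2 fold change over the square root of F. Alternatives were RLE factors, DESeq2 1.42.0, no low-count filter, the plant as a block, each plant left out, other sets of libraries and other thresholds of the rule. The scripts were tested on simulated data. The members and lists were chosen with earlier results of these data known. Genes named are the 8 deepest dips, those nearest the threshold, the 2 largest called changes each way per comparison that had 1 direction in all plants, the 4 with most counts, and neighbouring members; those of the sets across subgenomes were chosen after their values were seen. Labels that separate cultures or boxes are not given, so p-values measure the spread between these plants.

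Per the study's design text 3 plants were used, and their numbers were taken to pair libraries. Deviations from the group means correlated at -0.15 to 0.24 over 18 pairs of leaf libraries of 1 plant (median 0.003) and at -0.33 to 0.28 over 36 pairs of different plants.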

Additional observations from a re-analysis of the deposited data

How the results depend on the processing

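The number of genes that met the rule, 161, was 105 with TMM factors, 98 of them members. It was 82 with at least 5 CPM asked, 37 with a ratio of at most 1/2 and 641 with a ratio of at most 4/5, and 334 to 909 with each plant left out. With at least 1 CPM, the total of high-confidence models, low-confidence models taken in, or without the day 0 library of plant 1, it stayed within 1.5 times, and without the day 7 library of plant 3 it was 180. The 59 members called for day 7 against day 0 were 9 to 69 with each plant left out and 27 with only the 6 libraries of both groups. The 62 called for day 11 against day 0 were 31 to 60, and the 30 called for day 11 against day 7 were 9 to 33, and without the day 7 library of plant 3 these 3 counts were 72, 66 and 46. The 125 called for roots against leaves were 109 to 123, and 108 with all 15 libraries in 1 fit. Calls over all genes tested also moved. For day 7 against day 0, 17732 became 2389 to 17341 with each plant left out, and 8034 with the 6 libraries. For day 11 against day 0, 27855 became 16494 to 22517, and for day 11 against day 7, 13767 became 3357 to 10884. Without the day 7 library of plant 3 they were 20893, 29330 and 14569. For roots against leaves, 46469 became 39894 to 44507, and 40604 with all 15 libraries. With the plant as a block, pairing the libraries, the called members numbered 52, 59, 31 and 121, within 1.5 times of their main counts. Of 54 calls of named genes, 37 held in every alternative run, 17 were lost in at least 1 and 0 changed sign. Under the block the calls of TraesCS5A02G152700 for day 11 against day 0 (edgeR adjusted p = 0.058), TraesCS2B02G319600 for day 11 against day 7 (0.057) and TraesCS2B02G437200 for day 7 against day 0 (0.054) ended. The cause was not tested. Counts under 10 in a leaf library occurred in 7 members, which limits their ratios.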
